A study of Sus scrofa with 8 samples.

Results

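The nuclear-encoded respiratory chain genes described here are the subunits of complexes I to V of the inner mitochondrial membrane. They were chosen by symbol (NDUFA, NDUFB, NDUFC, NDUFS and NDUFV genes, SDHA to SDHD, UQCR genes, COX4 to COX8 genes, CYC1 and ATP5 genes). The rule found 79 genes with 78 symbols among 30282 genes in the table, NDUFA11 being carried by 2 gene identifiers. By complex these are 33 genes of complex I, 3 of complex II, 6 of complex III, 14 of complex IV and 15 of complex V, together with 8 assembly factors of complex I, NDUFAF1 to NDUFAF8, which the symbol pattern also caught. NDUFA4 and NDUFA4L2 were counted with complex IV, to which the NDUFA4 protein belongs despite its name. The rule found no gene under SDHA, NDUFS7, NDUFA3, NDUFA7, NDUFA12, NDUFB1, UQCRB, UQCRH, UQCR11, COX6B1, COX6C, COX7B, ATP5PD or ATP5MF. These subunits were not analysed here, and the sums and medians by complex leave them out.

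The genes were measured by bulk RNA-Seq in porcine pancreatic ductal organoids (PPDO), which are hollow or dense epithelial structures grown from picked pancreatic ducts of the pig. There were 4 lines, namely Em from an embryonic pancreas, EPN1 and EPN2 from early postnatal pancreata and LPN from a late postnatal pancreas, and each was cultured for a week in complete medium (titled control) and in differentiation medium (titled treated), which gives 8 libraries and n = 4 per medium. Complete medium held WNT3a, R-spondin1, noggin, FGF10, EGF, gastrin and prostaglandin E2, and differentiation medium lacked them. According to the paper, an L-WRN conditioned medium supplement took the place of WNT3a, R-spondin1 and noggin in PPDO maintenance. Which form these cultures received is not stated. Both media shared the basal medium, N2, B27 without vitamin A, the TGF-beta receptor inhibitor A83-01, the ROCK inhibitor Y-27632, nicotinamide, N-acetylcysteine and the Cultrex matrix. The comparison asks what removal of these factors, or of the supplement that carried some of them, did to the transcriptome. Em and LPN are a single line each, every line has 1 culture per medium, and another field of the sample records names an endocrine induction medium for all 8, so that the media follow the titles.

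Complexes I, III and IV pass electrons from NADH to oxygen and pump protons, complex II feeds in electrons from succinate, and complex V, the ATP synthase, uses the proton gradient to make ATP. Each complex other than complex II is built from subunits of nuclear genes and of mitochondrial DNA, so that the products of both genomes have to be brought together by assembly factors. Several subunits of complexes IV and V are encoded by more than one nuclear gene, and alternative copies in complex IV are known for their use in particular tissues or at low oxygen.

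Library totals ranged from 40553593 to 47910657 counts, and levels are given below as CPM, that is, counts scaled to a common library size with the TMM factors. The libraries were epithelial in both media. Of the 10 markers of duct epithelium 9 were in the table, and their summed level ranged between 6644 and 9159 CPM in complete medium and between 3832 and 14208 CPM in differentiation medium. CPA1, PNLIP and CEL of acinar cells, DCN and LUM of stromal cells, CDH5 of endothelial cells and CD3E of T cells did not exceed 1.06 CPM in any library, and PRSS2 of acinar cells reached 6.26 CPM in Em in complete medium and was at 0 to 0.475 CPM in the others. The summed levels of the marker lists in complete and differentiation medium were 0.975 to 3.21 and 0.835 to 23.7 CPM for 7 endocrine genes and 0.882 to 6.26 and 0.864 to 9.24 CPM for 7 stromal genes. They were 21.9 to 34.9 and 16.2 to 44.7 CPM for 5 endothelial genes, mostly KDR and PECAM1, and 6.61 to 58.3 and 9.84 to 34.5 CPM for 5 immune genes, mostly CD68 and LYZ, and of the 11 genes tested in these lists edgeR called 0 between media, with 2 at an unadjusted p under 0.05 and 1 called by DESeq2. GCG of endocrine cells reached 17.2 CPM in Em in differentiation medium, and INS and GCG were listed at 0 in all LPN, EPN1 and EPN2 libraries. EPN2 in differentiation medium had less KRT7 (522 CPM), KRT8 (425 CPM) and KRT18 (45.2 CPM) than the other 7 libraries, in which these keratins were at 1218, 1459 and 247 CPM or more, so the calls of the comparison of media are also given without it at the end.

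The share of each library taken by the 79 genes was about the same in both media, whereas the share of the 13 protein genes of mitochondrial DNA was lower in every line in differentiation medium. The nuclear-encoded genes held 0.653% (Em), 0.568% (LPN), 0.577% (EPN1) and 0.649% (EPN2) of counts in complete medium and 0.559%, 0.602%, 0.592% and 0.646% in differentiation medium, in the same order. These ranges overlap, and the share was lower in Em, higher in LPN and EPN1 and nearly equal in EPN2. As a share of the counts outside mitochondrial DNA, the genes held 0.707%, 0.613%, 0.624% and 0.711% in complete medium and 0.588%, 0.638%, 0.625% and 0.681% in differentiation medium, which is lower in Em and EPN2, higher in LPN and nearly equal in EPN1. As summed TMM-scaled CPM, the level was 6490, 5612, 5935 and 6747 in complete medium and 5522, 5797, 5572 and 6914 in differentiation medium, so that the direction in EPN1 and EPN2 depended on the scaling. The mitochondrial genes held 7.64%, 7.33%, 7.61% and 8.74% in complete medium and 4.97%, 5.55%, 5.21% and 5.03% in differentiation medium, which do not overlap. In bulk RNA, fewer cells of a type and less RNA per cell cannot be told apart.

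**Figure D1:**
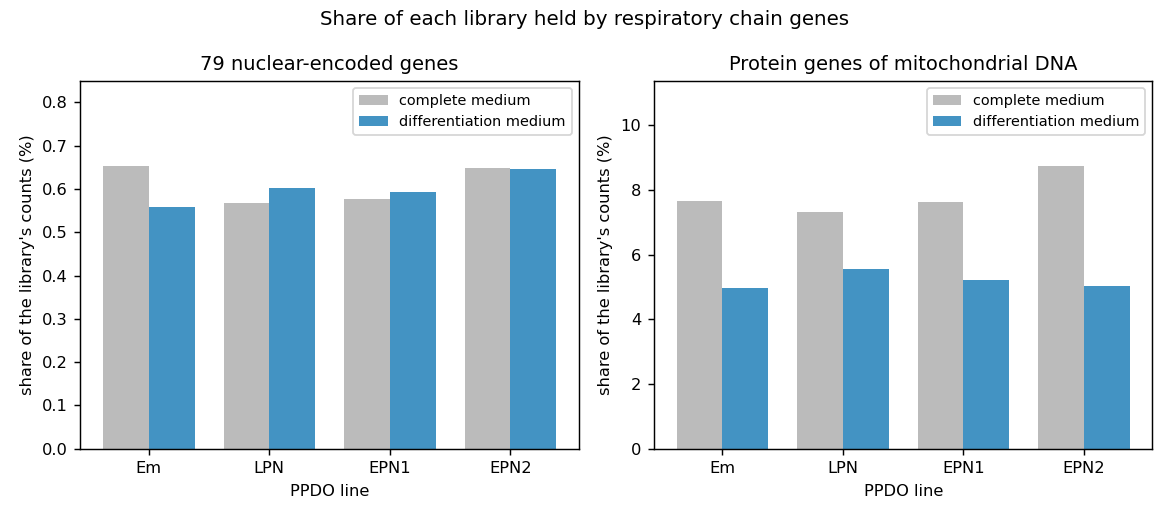
Share of the counts of each library, in percent, held by the 79 nuclear-encoded genes and by the 13 genes of mitochondrial DNA, with 1 bar per library (grey, complete medium, and blue, differentiation medium). The nuclear-encoded share overlaps between media, at 0.568 to 0.653% against 0.559 to 0.646%, and the mitochondrial share does not, at 7.33 to 8.74% against 4.97 to 5.55%.

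Of the 79 genes, 76 passed the filter on low counts and were tested in a fit over all 14475 genes. The second NDUFA11 identifier (1 to 10 counts per library), NDUFC1 (1 to 13 counts) and COX6B2 (1 to 11 counts) did not pass. In differentiation medium 6 of the 76 genes fell at an adjusted p-value under 0.05 (7.89%), beside 4.10% of all genes tested, and 0 rose, beside 2.87% of all genes (edgeR quasi-likelihood test, Benjamini-Hochberg adjustment). This fit held the medium alone and left out the pairing of the libraries by line. At an unadjusted p under 0.05, 16 were lower (14.3% of all genes) and 5 higher (13.0% of all genes). DESeq2 without the line called 12 lower (9.97% of all genes) and 2 higher (9.96% of all genes). When edgeR was given the line as a block, 9 were lower (11.8%, beside 10.4% of all genes) and 2 higher (2.63%, beside 9.48% of all genes). DESeq2 with the block called 13 lower (18.0% of all genes) and 9 higher (19.3% of all genes). In that last fit 17.1% of the 76 genes were lower and 11.8% higher, both below the share of all genes, and NDUFA5, NDUFA6, UQCRQ and others named below were called in it that passed no other fit over the 8 libraries.

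Most of the genes differed little between media. The fitted log2 fold change lay within 0.5 of 0 for 67 of the 76 genes (88.2%) and for 59.3% of all genes tested, or 69.5% of the 9514 genes with a mean of at least 10 CPM, a level that 70 of the 76 reached. Of the 76 genes, 75 were within 1 on that scale, and NDUFA4L2 was the exception. The median log2 fold change was -0.07 for the 76 genes and 0.01 for all genes. The median standard error was 0.15 for the 76 genes and 0.28 for all genes, so the shares within 0.5 also differ in precision. The libraries in differentiation medium all lay below those in complete medium for 15 of the 76 genes, beside 9.96% of all genes, and all lay above for 4, beside 8.82% of all genes.

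**Figure D2:**
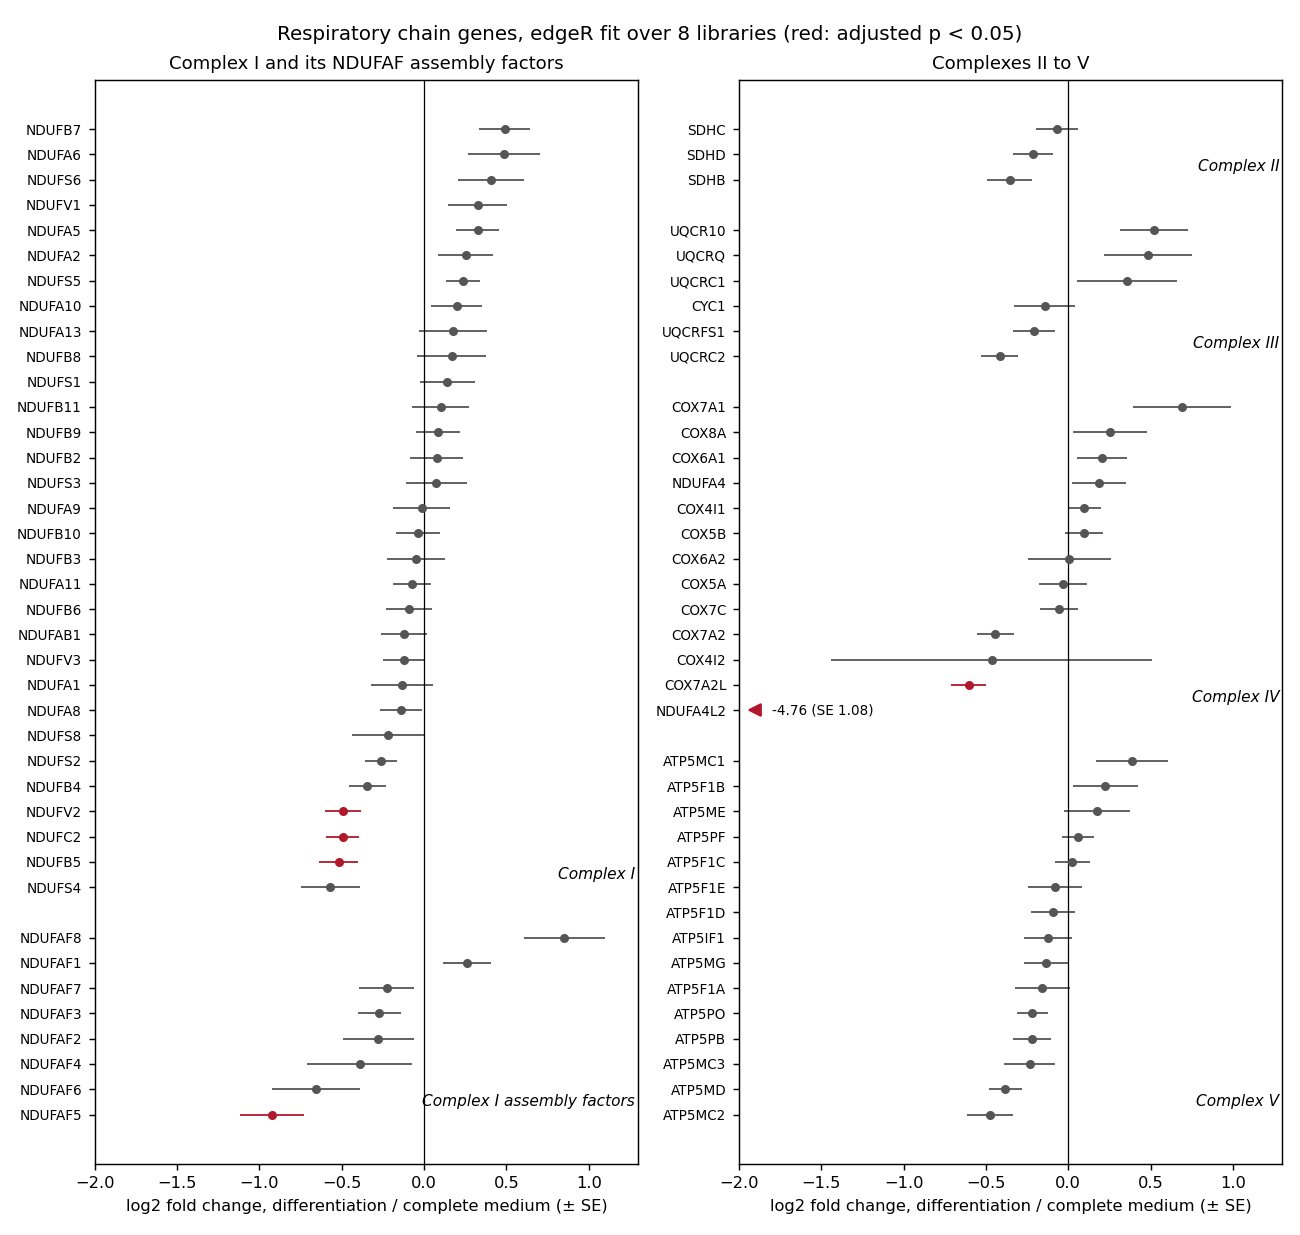
Fitted log2 fold change between differentiation and complete medium with its standard error for the 76 tested genes, ordered within each complex, with red for an adjusted p-value under 0.05. NDUFA4L2, at -4.76, lies beyond the axis and is drawn as an arrow. The other 75 lie between -0.92 for NDUFAF5 and 0.85 for NDUFAF8.

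Within complex I, 31 of 33 genes were tested, 3 fell (NDUFV2, NDUFC2 and NDUFB5) and none passed the edgeR test upwards, with 2 at an unadjusted p under 0.05. DESeq2 without the line called 6, among them NDUFB4, which was lower (adjusted p = 0.0395). Fitted changes ran from -0.57 for NDUFS4 to 0.49 for NDUFB7, 16 of them below and 15 above 0, and their median was -0.01. The summed level of complex I genes was 1456 ± 108 CPM (SD, n = 4) in complete medium and 1457 ± 170 CPM (SD, n = 4) in differentiation medium.

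NDUFV2, an iron-sulfur subunit of the arm that oxidizes NADH, was at 82.7 (Em), 66.7 (LPN), 72.4 (EPN1) and 83.1 (EPN2) CPM in complete medium and at 53.4, 52.6, 52.6 and 58.1 CPM in differentiation medium. All 4 lines were lower in differentiation medium and the groups did not overlap, and the log2 fold change was -0.49 (SE 0.11, edgeR adjusted p = 0.0402). NDUFC2, an accessory subunit of the membrane arm, was at 59.4, 52.1, 54.6 and 60.4 CPM in complete medium and at 41.3, 37.9, 39.5 and 42.1 CPM in differentiation medium. The fall was of like size in each line, and the log2 fold change was -0.49 (SE 0.10, edgeR adjusted p = 0.0323). NDUFB5, another accessory subunit of the membrane arm, was at 37.3, 35.2, 35.7 and 32.0 CPM in complete medium and at 22.6, 23.9, 23.6 and 27.7 CPM in differentiation medium. It fell least in EPN2, in which the log2 ratio was -0.21 against -0.56 to -0.72 in the other lines, and the fitted log2 fold change was -0.52 (SE 0.12, edgeR adjusted p = 0.0419). In the RefSeq annotation of the pig genome build Sscrofa11.1, NDUFV2 spans chr6:98819156-98852561, NDUFC2 chr9:12486488-12492507 and NDUFB5 chr13:117656411-117671515.

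The extremes of complex I did not pass the edgeR test without the line. DESeq2 without the line called both, at an adjusted p-value of 0.0415 for NDUFS4 and 0.0262 for NDUFB7. NDUFS4, an accessory subunit needed late in assembly of the complex, was at 58.4, 56.6, 68.1 and 45.0 CPM in complete medium and at 47.8, 33.6, 40.2 and 32.2 CPM in differentiation medium. Each line was lower, but Em in differentiation medium lay above EPN2 in complete medium, and the adjusted p-value was 0.0915 in edgeR and 0.0324 with the line as a block. NDUFB7, an accessory subunit on the outer side of the membrane arm, was at 30.6, 24.8, 25.0 and 33.7 CPM in complete medium and at 37.9, 36.2, 37.9 and 48.2 CPM in differentiation medium. The groups did not overlap, with a log2 fold change of 0.49 (SE 0.16), an edgeR adjusted p-value of 0.0948 and of 0.0313 with the block. NDUFS5 and NDUFA5 also lay above in all 4 libraries in differentiation medium, with log2 fold changes of 0.23 and 0.32 and edgeR adjusted p-values of 0.189 and 0.159. NDUFV1, the core subunit that binds NADH and lies beside NDUFV2, had a log2 fold change of 0.33 (SE 0.18, edgeR adjusted p = 0.274), and an adjusted p-value of 0.0662 in edgeR and 0.00727 in DESeq2 with the block.

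Among the 8 assembly factors of complex I, NDUFAF5 fell and the others did not pass the edgeR test, with a median log2 fold change of -0.27. NDUFAF5, which modifies the core subunit NDUFS7 during assembly, was at 7.26 (Em), 6.02 (LPN), 6.97 (EPN1) and 6.58 (EPN2) CPM in complete medium and at 3.65, 3.70, 3.60 and 3.22 CPM in differentiation medium. It was lower in all 4 lines by log2 ratios of -0.70 to -1.03, without overlap, and the fitted change was -0.92 (SE 0.19, edgeR adjusted p = 0.0350). NDUFAF5 spans chr17:22480344-22508804 (Sscrofa11.1, RefSeq).

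NDUFAF8, known as a partner of NDUFAF5 at the same assembly step, was at 4.23, 3.19, 2.86 and 3.26 CPM in complete medium and at 4.77, 6.47, 5.75 and 7.45 CPM in differentiation medium. It was the highest of the 76 genes by fold change, at 0.85 (SE 0.24), with no overlap between the groups and an edgeR adjusted p-value of 0.0749. The log2 ratio was 0.17 in Em and 1.01 to 1.19 in the other lines. DESeq2 without the line gave an adjusted p-value of 0.00230 for it, and edgeR with the block 0.0629.

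None of the 3 genes of complex II, the only complex with no subunit from mitochondrial DNA, passed the edgeR or the DESeq2 test without the line (1 at an unadjusted p under 0.05), and all 3 had fitted changes below 0 with a median of -0.21. The summed level of the 3 genes was 337 ± 19.0 CPM (SD, n = 4) in complete medium and 295 ± 7.09 CPM (SD, n = 4) in differentiation medium. SDHB, the iron-sulfur subunit, was at 88.0, 82.4, 105 and 77.1 CPM (Em, LPN, EPN1, EPN2) in complete medium and at 72.2, 72.0, 74.2 and 56.6 CPM in differentiation medium. The groups did not overlap, and the log2 fold change was -0.36 (SE 0.14, edgeR adjusted p = 0.147). With the block, the adjusted p-value of SDHB was 0.0558 in edgeR and 0.0109 in DESeq2. SDHC and SDHD anchor the complex in the membrane, and their log2 fold changes were -0.07 (SE 0.13) and -0.21 (SE 0.12).

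None of the 6 genes of complex III passed the edgeR test (2 at an unadjusted p under 0.05, and 1 called by DESeq2), and their fitted changes were spread from -0.42 for UQCRC2 to 0.52 for UQCR10, with a median of 0.11. UQCRC2, a core protein of the complex, was at 144, 127, 142 and 130 CPM in complete medium and at 94.5, 98.9, 94.0 and 119 CPM in differentiation medium. All lines were lower and the groups did not overlap, with a log2 fold change of -0.42 (SE 0.11) and an edgeR adjusted p-value of 0.0674, or 0.0393 without EPN2 in differentiation medium. UQCR10, one of the small subunits, was at 34.5, 35.1, 37.1 and 39.3 CPM in complete medium and at 36.6, 55.6, 44.5 and 72.5 CPM in differentiation medium. It was higher in each line, most in EPN2 and LPN and least in Em, and the groups overlapped (SE 0.21, edgeR adjusted p = 0.155, and 0.0896 in edgeR and 0.0373 in DESeq2 with the block). UQCRC1, the other core protein, had a log2 fold change of 0.36 with an SE of 0.30, and EPN2 was its highest line in both media (171 and 243 CPM).

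Of the genes counted with complex IV, cytochrome c oxidase, 13 of 14 were tested and 2 fell, COX7A2L and NDUFA4L2. COX7A2L was placed here by its symbol and NDUFA4L2 as a paralogue of NDUFA4. No other gene of the group was called by edgeR without the block. The median log2 fold change of the 13 was 0.00, and 10 of them lay within 0.5 of 0. COX4I1, COX5A, COX5B and COX7C, which are general subunits, had log2 fold changes of 0.10, -0.03, 0.09 and -0.06.

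NDUFA4L2, a paralogue of the NDUFA4 subunit that is known as a target of the hypoxia-inducible factor HIF-1 and for restraining respiration at low oxygen, changed most. It had 331 (Em), 869 (LPN), 879 (EPN1) and 4916 (EPN2) counts in complete medium and 66, 28, 20 and 152 counts in differentiation medium, which are 7.17, 21.2, 21.1 and 111 CPM and 1.36, 0.585, 0.453 and 3.55 CPM. The groups did not overlap, EPN2 was the highest line in both media, and the lines spanned a wider range within complete medium than Em did between media. The log2 fold change was -4.76 (SE 1.08), a 27.0-fold lower level in differentiation medium (edgeR adjusted p = 0.0417). The log2 fold change was -3.47 without EPN2 in complete medium and -5.64 without EPN2 in differentiation medium, and it was -4.45 to -5.09 without any other single library. The log2 ratio was -2.40 in Em and -4.97 to -5.55 in the other lines. The gene spans chr5:22540482-22548418 (Sscrofa11.1, RefSeq).

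NDUFA4 itself was at 98.8, 64.4, 64.6 and 86.2 CPM in complete medium and at 89.4, 86.2, 82.2 and 99.6 CPM in differentiation medium. The groups overlapped, 3 of 4 lines were higher in differentiation medium, and the log2 fold change was 0.19 (SE 0.16, edgeR adjusted p = 0.493). Whether NDUFA4 and NDUFA4L2 differed in their response was not itself tested.

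COX7A2L, which is known for joining complexes III and IV into supercomplexes, was at 202, 195, 236 and 198 CPM (Em, LPN, EPN1, EPN2) in complete medium and at 134, 132, 139 and 143 CPM in differentiation medium. The levels in differentiation medium were close to each other and below every level in complete medium, and the log2 fold change was -0.60 (SE 0.11, edgeR adjusted p = 0.0218). It had the smallest p-value of the 76 genes. COX7A2, the general form of subunit 7A, was at 75.5, 57.6, 60.8 and 68.0 CPM and at 48.1, 45.8, 49.0 and 49.9 CPM, without overlap, with a log2 fold change of -0.44 (SE 0.11, edgeR adjusted p = 0.0581 and 0.0403 with the block). DESeq2 called COX7A2 at an adjusted p-value of 0.00802 without the line and 0.00252 with the block. COX7A1, the form of heart and skeletal muscle, was at 6.54, 9.60, 9.88 and 4.63 CPM and at 11.7, 12.2, 16.2 and 9.39 CPM. COX7A1 was higher in each line, with a log2 fold change of 0.69 (SE 0.30) and an edgeR adjusted p-value of 0.178, or 0.0422 with the block.

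**Figure D3:**
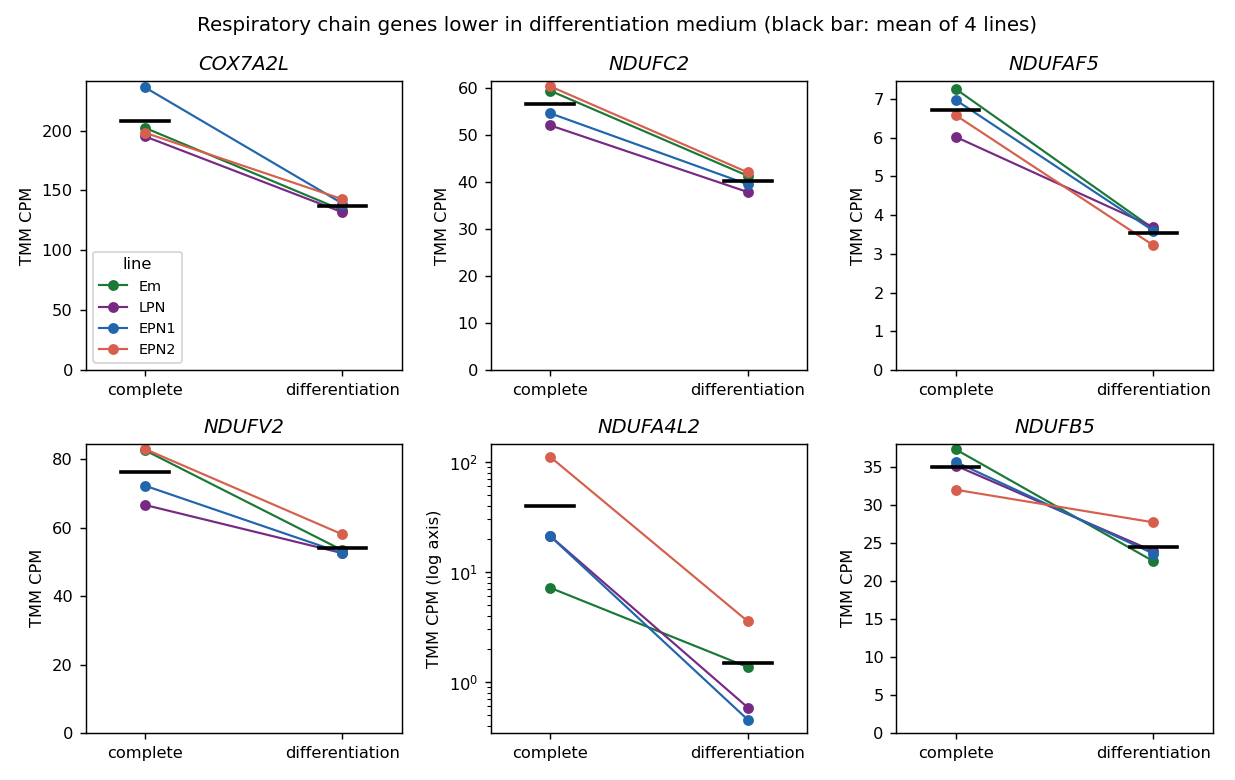
Level of the 6 genes with an adjusted p-value under 0.05, in TMM-scaled CPM, for each line in complete and in differentiation medium, with the mean of the 4 lines as a black bar and a log axis for NDUFA4L2. In each panel all 4 lines are lower in differentiation medium and the groups do not overlap. COX7A2L averages 208 and 137 CPM.

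For the remaining isoforms of complex IV no change passed the test. COX4I2, the form of subunit 4 known for its use in lung and at low oxygen, was rare, with 4 to 65 counts in complete and 5 to 54 counts in differentiation medium, and its log2 fold change was -0.47 with an SE of 0.97. COX6A1 and its muscle form COX6A2 had log2 fold changes of 0.20 (SE 0.15) and 0.00 (SE 0.25). COX8A was at 106, 96.4, 116 and 139 CPM in complete medium and at 109, 121, 114 and 200 CPM in differentiation medium, so that EPN2 was the highest line in both (log2 fold change 0.25, SE 0.22). COX6B2, the testis form of subunit 6B, was not tested and had 10, 10, 11 and 5 counts in complete and 5, 3, 1 and 1 counts in differentiation medium, where EPN2 in the first equals Em in the second.

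None of the 15 genes of complex V passed the edgeR test (3 at an unadjusted p under 0.05, and 2 called by DESeq2), and all 15 lay within 0.5 of 0, with a median log2 fold change of -0.12 and 10 of them below 0. The 2 called by DESeq2 without the line were ATP5MC2 and ATP5MD, both lower (adjusted p = 0.0233 and 0.00449). The 3 genes ATP5MC1, ATP5MC2 and ATP5MC3 encode the same mature c subunit of the membrane ring with different import sequences. ATP5MC2 was at 223, 185, 240 and 175 CPM in complete medium and at 157, 139, 161 and 135 CPM in differentiation medium, which do not overlap (log2 fold change -0.48, SE 0.14, edgeR adjusted p = 0.0781 and 0.0274 with the block). ATP5MC1 was at 36.8, 30.2, 25.3 and 46.2 CPM and at 38.2, 47.1, 39.4 and 56.5 CPM, higher in each line with overlap between the groups (log2 fold change 0.39, SE 0.22, edgeR adjusted p = 0.284, and 0.0902 in edgeR and 0.0350 in DESeq2 with the block). ATP5MC3 had a log2 fold change of -0.23 (SE 0.15, edgeR adjusted p = 0.362).

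ATP5F1A and ATP5F1B, the alpha and beta subunits of the catalytic head, had log2 fold changes of -0.16 (SE 0.16) and 0.23 (SE 0.20). ATP5IF1, the inhibitor of ATP hydrolysis by the complex, had a log2 fold change of -0.12 (SE 0.15).

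**Figure D4:**
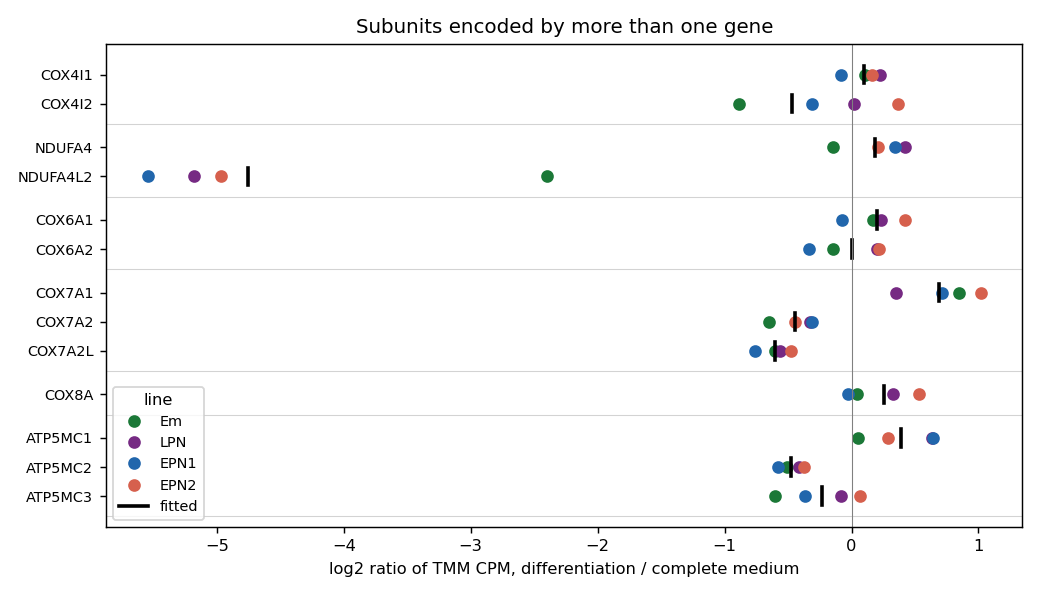
Log2 ratio of TMM-scaled CPM between differentiation and complete medium for the genes of subunits encoded by more than one gene, including the related genes NDUFA4L2 and COX7A2L. Each line has 1 point, and a black bar gives the fitted value. NDUFA4L2 lies between -2.40 and -5.55 in the 4 lines, whereas NDUFA4 lies between -0.14 and 0.42. COX7A2, COX7A2L and ATP5MC2 lie below 0 and COX7A1 and ATP5MC1 above 0 in all 4 lines.

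The lines differed in the direction of the genes as a group. The median log2 ratio of the 76 genes was -0.22 in Em, -0.09 in EPN1, 0.02 in LPN and 0.06 in EPN2, while that of all genes tested was -0.01 to 0.01. In Em 16 of the 76 genes (21.1%) were higher in differentiation medium, in EPN1 28, in LPN 43 and in EPN2 44 (57.9%), against 49.2 to 50.3% of all genes. Complex II and the assembly factors of complex I had a median below 0 in all 4 lines, whereas complexes I, III, IV and V had a median below 0 in Em and above 0 in LPN and EPN2. With 1 culture per line and medium, a difference between lines in the response to the medium cannot be tested.

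**Figure D5:**
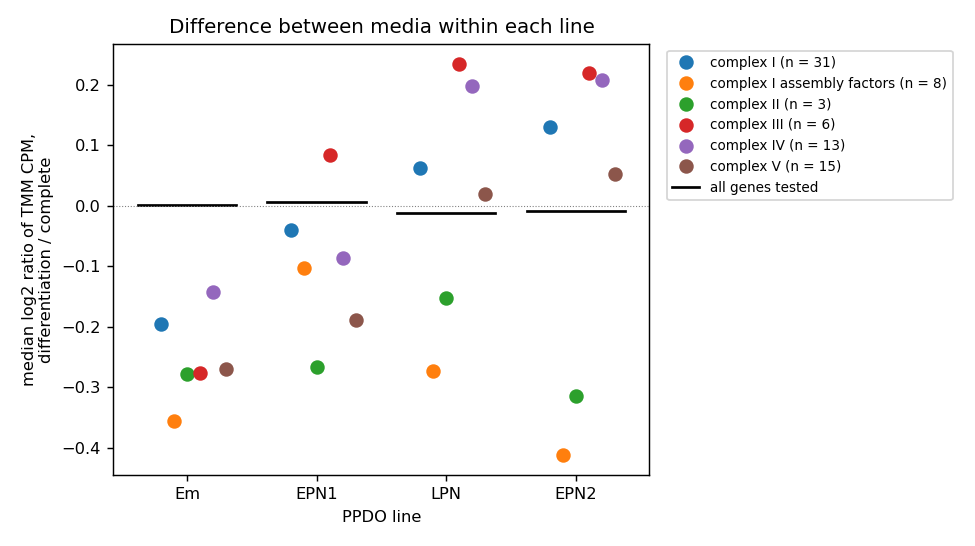
Median log2 ratio of TMM-scaled CPM between differentiation and complete medium in each line, with 1 point per complex and a black bar for the median of all genes tested. All 6 groups lie below 0 in Em, and complexes I, III, IV and V lie above 0 in LPN and EPN2.

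The level of the genes across lines, with the medium as the other term, differed for 1 of the 76, COX4I2, beside 5.14% of all genes tested (edgeR quasi-likelihood F test). COX4I2 was at 1.41 CPM in Em and 1.52 CPM in EPN1 in complete medium and at 0.763 and 1.22 CPM in differentiation medium, whereas LPN had 0.268 and 0.271 CPM and EPN2 0.0904 and 0.117 CPM. Em and EPN1 were thus above LPN and EPN2 in both media (adjusted p = 0.0426 by edgeR). The call of COX4I2 was lost when any 1 of the 8 libraries was left out (adjusted p = 0.0773 to 0.153 by edgeR), and NDUFA4L2 was called in its place without the Em library of either medium. At an unadjusted p under 0.05 in edgeR the count was 10. The share of all genes at that limit was not computed, so this count cannot be read as many or few. DESeq2 called 11 (14.5% of the 76, below the 31.5% of all genes), among them UQCRC1, NDUFS3, NDUFV1, ATP5ME and NDUFA4L2.

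Among the 13 protein genes of mitochondrial DNA, 3 fell (beside 4.10% of all genes) and none rose past the threshold (beside 2.87% of all genes), and the median log2 fold change was -0.32. COX1, the catalytic subunit of complex IV, was at 29764, 28781, 33507 and 35409 CPM in complete medium and at 17766, 16465, 16709 and 19417 CPM in differentiation medium. The groups did not overlap, and the log2 fold change was -0.86 (SE 0.19, edgeR adjusted p = 0.0401). ATP8 and ATP6, which share a transcript and belong to complex V, fell by 0.79 (SE 0.12) and 0.74 (SE 0.15) on the log2 scale (edgeR adjusted p = 0.0177 and 0.0309). ND1 and ND2 of complex I had log2 fold changes of 0.02 and 0.06, and CYTB of complex III ranged from 365 to 2710 CPM over the 8 libraries.

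The neighbouring groups of mitochondrial genes mostly did not pass the test. None of 32 tested assembly factors of the other complexes, 16 electron carriers and their donors, 14 enzymes of the TCA cycle and 15 regulators of mitochondrial biogenesis was called by edgeR without the block. Of these 77 genes, 11 had an unadjusted p under 0.05, beside 14.3% of all genes lower and 13.0% higher. DESeq2 called 8 of them, beside 9.97% of all genes lower and 9.96% higher. With the block COX16, DHODH, ETFDH, SUCLG2 and TWNK were lower and PPARGC1B was higher. CYCS (cytochrome c) had a log2 fold change of -0.19 (SE 0.29), TFAM, the packaging factor of mitochondrial DNA, of 0.07 (SE 0.14) and the coactivator PPARGC1A of -0.19 (SE 0.69). MYC had a log2 fold change of -0.72 (SE 0.27, edgeR adjusted p = 0.134). Of 65 mitochondrial ribosomal proteins 4 fell (MRPL45, MRPS9, MRPL37 and MRPL54, by 1.07, 0.71, 0.47 and 0.42 on the log2 scale) and MRPL10 rose by 0.65, and with the block MRPL43 was also higher. Over all genes tested, edgeR without the block called 4.10% lower and 2.87% higher, and with the block 10.4% lower and 9.48% higher. The same shares stand beside the lists of the next paragraph.

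Of 12 genes for the entry of pyruvate into mitochondria, PDHX, a component of the pyruvate dehydrogenase complex, fell by 0.92 (SE 0.21, edgeR adjusted p = 0.0442), and PDK1, the kinase that inactivates that complex, fell by 2.06 (SE 0.20, edgeR adjusted p = 0.00581). With the block MPC1, a part of the pyruvate carrier, was also called, and was higher. PDK1 was at 149, 169, 199 and 133 CPM in complete medium and at 29.2, 44.4, 35.0 and 47.2 CPM in differentiation medium. Of 9 genes that link oxygen to respiration, 3 fell, namely PDK1, the oxygen sensor EGLN3 (log2 fold change -3.22, SE 0.31) and the mitophagy receptor BNIP3 (-4.23, SE 0.43), and ISCU, the scaffold of iron-sulfur cluster assembly, rose by 0.75 (SE 0.16). Of 8 uncoupling proteins and carriers, the outer membrane channels VDAC3 and VDAC2 fell by 1.15 (SE 0.16) and 0.86 (SE 0.11), and VDAC1 and the nucleotide carrier SLC25A4 were also lower with the block, as was LONP1 of the oxygen list.

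The calls for the 6 subunit and assembly genes depended on single libraries. When EPN2 in differentiation medium was left out, 6 genes were called lower, 5 of them the same, since NDUFAF5 was lost (adjusted p = 0.0550) and UQCRC2 gained. Of the other called genes, COX1, PDHX, ISCU, MRPL45, MRPS9 and MRPL54 were also lost without that library. Without EPN2 in complete medium 4 remained, and without Em in complete medium 2, COX7A2L and NDUFA4L2. No gene was called when LPN or EPN1 in complete medium, or Em, LPN or EPN1 in differentiation medium, was left out, with 70 to 498 calls over all genes in these 5 fits, and the log2 fold changes then ranged from -4.45 to -4.97 for NDUFA4L2 and from -0.52 to -0.64 for COX7A2L. Of 8 proliferation markers, none passed the edgeR or DESeq2 test without the line (3 at an unadjusted p under 0.05). In edgeR with the block 5 of the 8 were lower (CDK1, TOP2A, PLK1, CCNB1 and BIRC5), beside 10.4% of all genes. Their summed level was 198 to 502 CPM in complete medium and 119 to 362 CPM in differentiation medium, and their part in these results was not tested. Many respiratory chain genes have close copies or pseudogenes in mammalian genomes, and reads shared with them could be split between copies in the counts.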

How the data were processed

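RNA of the 8 cultures was selected by poly(A) and sequenced as paired ends. The authors ran salmon within an nf-core pipeline on a pig genome with their own annotation, and the deposited table holds the estimated counts, which its label calls raw. Length scaling is named in the paper for the input of its tests but cannot be recognised in this table, where 78.6% of the nonzero values are whole. Rows with the suffixes -iso and -ext were summed per gene and rounded, and 8 rows of reporter transgenes (0.00142% of counts) were left out. The comparison of media used R 4.3.3 and edgeR 4.0.16, with TMM factors, the default expression filter, the quasi-likelihood test of a model holding the medium alone, and Benjamini-Hochberg adjustment over 14475 genes at a threshold of 0.05. Standard errors were taken from the fold change and its F statistic. A count of 0 allows up to 3 counts (0.0626 to 0.0740 CPM), and this covers counting error only. The fit was also run on simulated counts with a smaller spread than these data and no pairing by line, so that run does not show its error rate here. DESeq2 1.42.0, other scalings, the line as a block and leaving out each library were alternatives.

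Lines were read from the column names, and replicate numbers in the titles were not matched to columns. The line pairs the libraries, because it was grown in either medium. The deviations of the libraries from the means of their medium correlated at 0.400 to 0.657 between libraries of 1 line (4 pairs) and at -0.479 to 0.242 between libraries of different lines (12 pairs). The lines are separate animals' tissue, and cultures of a line share it.

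The genes and the lists around them were chosen with earlier results of these data known. Genes were named by a rule, which took those past the threshold (at most 20), the highest and the lowest fold change in each complex, the isoform sets, CYCS, PPARGC1A, TFAM, MYC and PDK1, and up to 5 past the threshold in each list. The others named in the text were chosen after their values were seen. Of the 79 genes, 68 were found in a separate table of names and 67 had the same symbol there, ATP5MD being listed as ATP5MK. Coordinates were taken by symbol from RefSeq for Sscrofa11.1, a build that the submitters' processing notes name, and were present for 51 genes.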

Additional observations from a re-analysis of the deposited data

Results flagged for a closer look

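Within each medium, 1 of the 4 lines stood far from the other 3 for 9 of 90 groups of 4 libraries examined, by the gap to the nearest line relative to the range, and chance flags about 1 group in 20. In differentiation medium EPN2 was the outlying line for NDUFV2 (58.1 CPM against 52.6 to 53.4 in the others), NDUFB7 (48.2 against 36.2 to 37.9), COX8A (200.5 against 109 to 121), ISCU (81.1 against 63.9 to 66.2) and, on the low side, SDHB (56.6 against 72.0 to 74.2). Em in differentiation medium was lowest for MYC (70.9 against 90.5 to 92.5) and highest for PDHX (27.5 against 19.1 to 19.6), and LPN was highest for ATP6 (5468 against 5070 to 5124). In complete medium EPN2 was highest for NDUFA4L2 (111.1 CPM against 7.17 to 21.2).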

How the results depend on the processing

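Directions were kept for the 6 genes called lower, the 3 called genes of mitochondrial DNA and the other called genes named in the lists under every alternative run, and the median log2 fold change of the respiratory chain genes stayed below 0, at -0.13 to -0.02 when each library was left out. The 6 genes called lower remained 6 under DESeq2 size factors, library totals, with the -ext rows left out, with equal symbols summed, and with the genes of mitochondrial DNA left out, an alternative chosen after seeing the data. Without the filter on low counts 2 remained, of 24670 genes tested, and 506 genes were called in all against 1009. DESeq2 without the block gave 12 lower and 2 higher and 2884 calls over all genes, and edgeR with the line as replicate block 9 lower and 2 higher and also 2884 calls, of other genes in part. DESeq2 with the block gave 13 lower, 9 higher and 5393 calls over all genes, and all 6 genes were called in these 3 fits. Leaving out 1 library gave 0 to 6 genes lower, 0 higher in each case, and 70 to 1199 calls over all genes. In edgeR the block changed no call of a respiratory chain gene other than those given beside the results, and CDH1 (higher) and PDGFRB (lower) among the cell type markers. For the line, DESeq2 called 11 genes, and leaving out 1 library gave 0 to 1. The cause of these differences between tools was not tested. The 6 named genes whose sign reversed had not been called. Without single libraries, SDHC ranged from -0.1553 to 0.003206, COX4I2 from -1.082 to 0.01772, COX6A2 from -0.1503 to 0.1567, CYCS from -0.3406 to 0.1236, TFAM from -0.01028 to 0.1788 and PPARGC1A from -0.4957 to 0.8454 on the log2 scale. With the block, COX6A2 was at -0.01684 and PPARGC1A at 0.3148 in edgeR and 0.3483 in DESeq2. With 4 lines per medium, the median standard error of the log2 fold change was 0.15 for the 76 genes and 0.28 for all genes tested. Changes well above their standard error also went uncalled by edgeR, such as 0.49 for NDUFB7 (SE 0.16) and -0.42 for UQCRC2 (SE 0.11). A gene without a call is therefore not shown to be unchanged. Genes with few counts, such as COX4I2, were measured with less precision (SE 0.97).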
